A study of Homo sapiens with 2 samples.

Results

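SRF, MYC, IER2, IER3, DUSP1 and MCL1, 6 genes of the early response to serum, were examined for intervals enriched by EGR1 ChIP. An interval was counted for a gene when it lay within 10 kb of the gene span on GRCh37, measured from edge to edge. The intervals came from 1 chromatin immunoprecipitation and sequencing (ChIP-seq) library made with an antibody against EGR1. The cells were t-HESC, an immortalised line derived from human endometrial stromal cells, the connective tissue of the uterine lining. They received no treatment other than growth medium, which held serum (fetal bovine serum) and 500 ng/ml puromycin, and no group of serum-starved or freshly stimulated cells was compared. The other library of the series was 1 input library of the same untreated line, and it was not analysed here. Of the 7709 intervals of the series, 13 met the rule, and they lay at 4 of the 6 genes. The 7 intervals at IER2, the 3 at MYC, the 2 at IER3 and the 1 at SRF make up this number. No interval lay within 10 kb of DUSP1 or MCL1. For comparison, 5.1% of all windows of the genes' median length, 4812 bp, had an interval within 10 kb, counted at every position of the chromosomes. These windows include unsequenced gaps and stretches without genes, so this is a low background for genes. The share among all genes was not computed. The 6 genes were also chosen with earlier results of these data known, so no excess can be read from these counts.

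When serum or a growth factor reaches a resting cell, a first set of genes is switched on without new protein being made. CArG boxes are among the DNA elements known to drive much of this response. The serum response factor SRF binds CArG boxes together with ETS-family partners or with actin-regulated co-activators, and EGR1, itself a product of the response, binds GC-rich sites. SRF and MYC encode transcription factors, IER2 and IER3 encode small early response proteins, DUSP1 encodes a phosphatase that switches off MAP kinases, and MCL1 encodes a short-lived member of the BCL2 family that protects cells from apoptosis.

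Promoter sequence is shown for the 3 members with a window in the reference table: SRF and IER2, which had intervals at different places relative to the start, and DUSP1, which had none. Each line gives the 250 bases before the RefSeq gene start, 5′ to 3′ on the strand of the gene, on build GRCh38.p14. Capitals mark matches, on either strand, to the EGR1 sites GCGTGGGCG and GCGGGGGCG, to the GC box GGGCGG that SP and KLF factors bind, and to the CArG box. The SRF window is on the plus strand at chr6:43171019-43171268, the IER2 window on the plus strand at chr19:13150161-13150410 and the DUSP1 window on the minus strand at chr5:172771196-172771445.
SRF: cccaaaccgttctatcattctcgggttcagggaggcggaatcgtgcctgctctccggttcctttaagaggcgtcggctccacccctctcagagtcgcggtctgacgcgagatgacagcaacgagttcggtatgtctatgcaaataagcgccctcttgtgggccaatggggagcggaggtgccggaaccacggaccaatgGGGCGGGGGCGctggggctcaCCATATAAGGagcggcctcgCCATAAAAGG
IER2: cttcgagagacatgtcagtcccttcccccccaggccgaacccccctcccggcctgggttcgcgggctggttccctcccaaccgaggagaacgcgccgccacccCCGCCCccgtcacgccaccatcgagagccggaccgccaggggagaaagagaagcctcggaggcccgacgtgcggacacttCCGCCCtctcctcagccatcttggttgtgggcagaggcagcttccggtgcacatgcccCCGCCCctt
DUSP1: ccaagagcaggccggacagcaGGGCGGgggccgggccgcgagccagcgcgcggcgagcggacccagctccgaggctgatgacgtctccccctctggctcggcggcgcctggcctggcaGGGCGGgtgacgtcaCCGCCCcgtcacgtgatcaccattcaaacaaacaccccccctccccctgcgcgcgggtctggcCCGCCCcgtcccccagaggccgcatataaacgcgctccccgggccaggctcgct

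The SRF window shown held both an EGR1 site and CArG boxes. SRF has a second window, not shown, at chr6:43172146-43172395, and it held no match to any of these letters. One GCGGGGGCG match lay 49 to 41 bases before the start and overlapped a GC box at 51 to 46 bases. CArG boxes lay 30 to 21 bases and 10 to 1 bases before the start. In the whole reference table of 35116 promoter windows of the same length, GCGGGGGCG was present in 4.72% and the CArG box in 1.16%. The IER2 window held 3 GC boxes and the DUSP1 window held 4, and neither held an EGR1 site of these letters or a CArG box. GC boxes were common, with a match in 42.6% of all windows, and GCGTGGGCG was rare, at 0.72% of all windows and none of the 4 windows of these genes (SRF has 2). The windows of DUSP1, IER2 and SRF shown were 74.4%, 69.6% and 60.4% G or C, against a median of 58% over all windows. A match of letters is a description and not evidence of binding. The intervals are on GRCh37 and the sequences on GRCh38.p14, so the letters under the intervals themselves were not read.

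Other early response genes and cytoskeletal SRF targets were searched in the same way. Of 24 other early response genes, 20 had a window, and GCGGGGGCG was present in 4 of them: BTG2, an antiproliferative gene, DUSP2, a phosphatase related to DUSP1, GADD45B, a stress response gene, and KLF6, a GC-box factor. The CArG box was present in 2 of the 20, EGR1 itself and its relative EGR2. GC boxes were present in 16 of the 20. Counted by window, as the shares of the whole table are, GCGGGGGCG was in 4 of their 25 windows (16%), the CArG box in 2 (8%) and a GC box in 17 (68%). Of 12 cytoskeletal targets, 9 had a window. GCGGGGGCG was present in 1, the smooth muscle actin gene ACTA2, and the CArG box in 2, the actin gene ACTG1 and the LIM-domain gene FHL2. All 9 held a GC box in at least 1 window. By window, GCGGGGGCG was in 1 of 17 (5.88%), the CArG box in 4 (23.5%) and a GC box in 10 (58.8%). GCGTGGGCG was in no window of either list. SRF thus held an EGR1 site and a CArG box in 1 of its windows, and no gene with a window in either list held both. The share of the whole table with both was not computed. With so few windows in the lists, the absence there does not show that the pairing is particular to SRF.

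The scores of the 13 intervals lay in the lower part of the range of the list, on both sides of its median. Each summit carries a score, a whole number set by the authors. Its unit is unknown from the labels and files, so scores were only ranked within the list. Over all 7709 summits the median score was 26 (quartiles 20 and 37, range 11 to 336). At the 6 genes the lowest score was 13, the median 28 and the highest 66. The median score of the list was reached or passed by 7 of the 13 intervals, against 51.0% of the whole list. A score of 57 or more, the 90th percentile, was reached by 2 of the 13, against 10.2% of the list. Both shares are near those of the list. The median width was 401 bp at these genes (range 208 to 781 bp) and 343 bp in the list (range 207 to 2242 bp).

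There was 1 ChIP library without a replicate, so none of the values below has a replicate error and no difference was tested. Read counts were not used here and the depth is unknown. A gene without an interval is therefore a gene where none was called at this depth, not one shown to be unbound. Enrichment over the input and RNA levels were not analysed here, and neither an effect on expression nor the identity of the cells from marker genes could be examined.

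**Figure D1:**
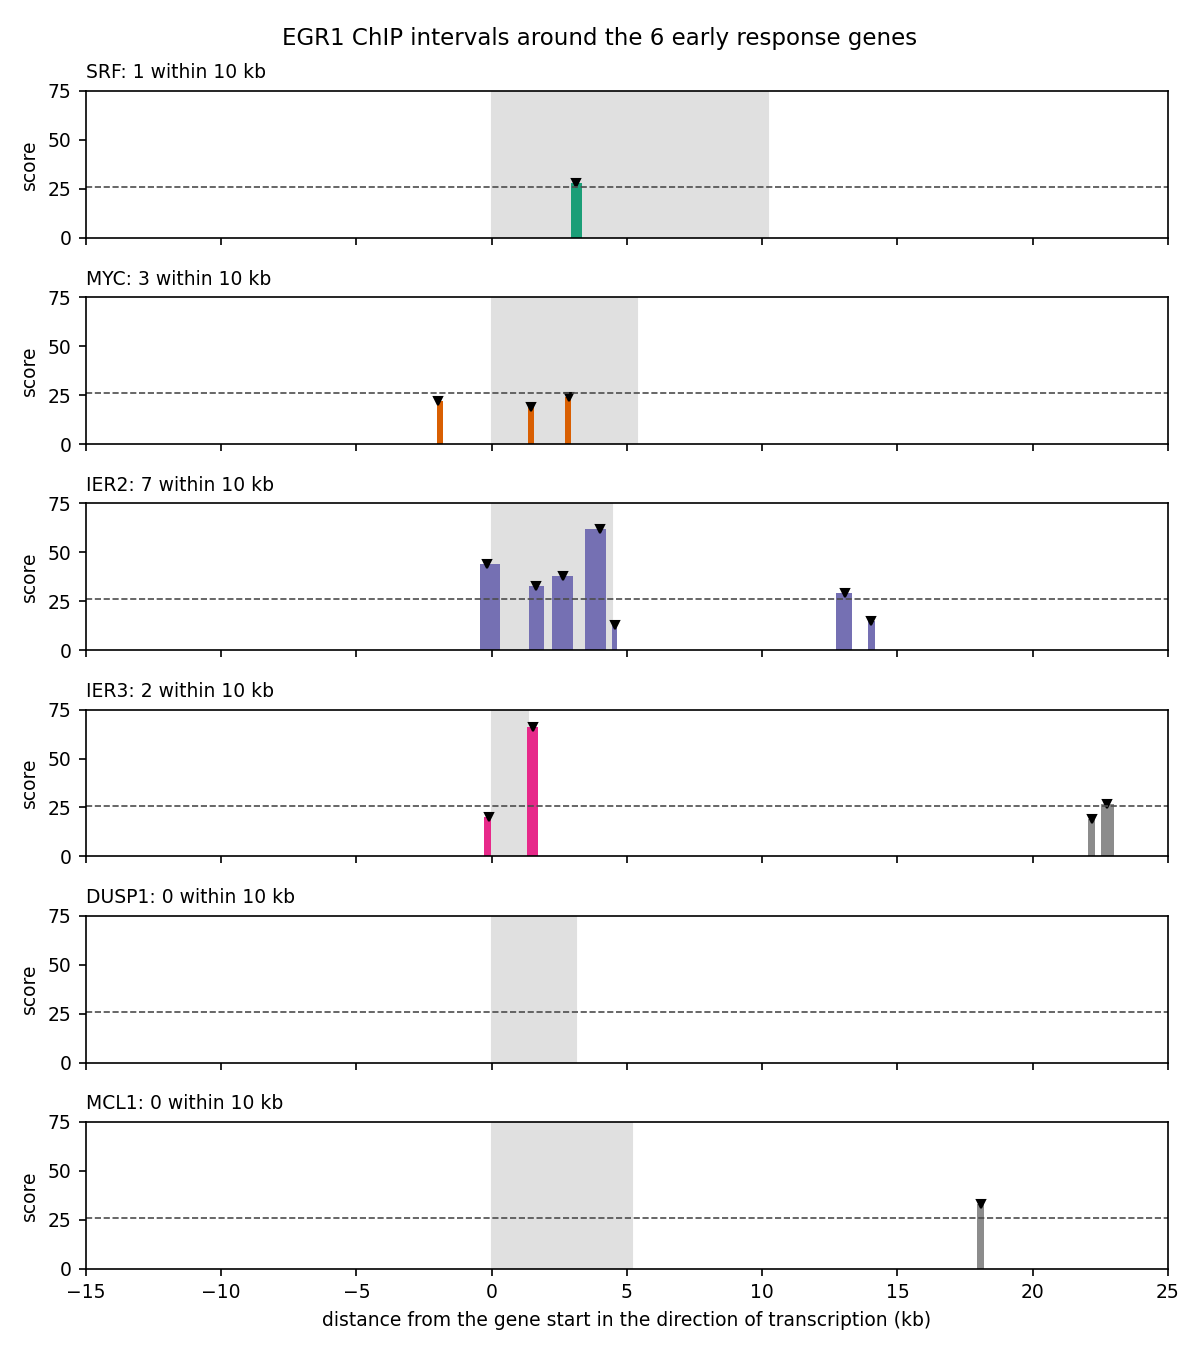
Intervals around each of the 6 genes, plotted by distance from the gene start in kb along the direction of transcription (horizontal) and by summit score (vertical). Grey blocks are the gene spans, coloured bars the intervals within 10 kb, grey bars those farther away, triangles the summits and the dashed line the median score of 26. IER2 has 5 bars, with gaps between them, from its start to just past its end, IER3 has its highest bar at its end, MYC has 3 low bars, and DUSP1 and MCL1 have none within 10 kb.

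SRF, the serum response factor, had its interval inside the gene and away from its start. The gene spans chr6:43139033-43149244 on the plus strand, and the interval lay at chr6:43141956-43142356. Its nearer edge was 2923 bp and its summit 3111 bp past the start, at 30.5% of the length of the gene. The start was taken as the edge of the gene span. On GRCh38.p14 the second SRF window lies farther into the gene, and no distance to it was taken. The interval was 401 bp wide and its score was 28, with 56.2% of the list scored lower. Among the 1151 intervals of similar width (within 10%), 49% scored lower, so for its width this was an ordinary interval. No interval lay nearer to the SRF start on either side, where the window printed above holds an EGR1 site and the CArG boxes. The next intervals were 44.9 kb upstream, with a score of 24, and 65.7 kb downstream, with a score of 27.

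MYC, a transcription factor that drives growth and division, had 3 narrow intervals with scores below the median of the list. The gene spans chr8:128748315-128753680 on the plus strand. The first interval, at chr8:128746293-128746515, had its summit 1979 bp upstream of the start and a score of 22. The second, at chr8:128749656-128749865, lay inside the gene with its summit 1445 bp past the start and a score of 19. The third, at chr8:128751044-128751258, had its summit 2853 bp past the start, at 53.2% of the gene length, and a score of 24.

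All 3 MYC intervals were among the narrow ones of the list, at 223, 210 and 215 bp. Only 11.3%, 5.73% and 8.03% of the 7709 intervals were narrower, and the smallest width in the list was 207 bp. By score they ranked higher than by width, with 32%, 17% and 41.2% of the list scored lower. Against intervals of similar width, 66.9%, 43.5% and 83.9% scored lower. They were separated by 3140 and 1178 bp, and none of the 3 covered the gene start, whose nearest interval edge was 1341 bp away inside the gene. Within 500 kb of MYC there were only 4 intervals, so 3 of the 4 lay within 2 kb of the gene or in it. With the 3 intervals of the rule counted in, that is 3.98 per Mb, against 1.72 per Mb over chromosome 8. The contrast thus rests on the intervals that met the rule and does not describe the surroundings of MYC.

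IER2, a nuclear protein gene induced within minutes of serum, was the member with the most intervals. Its span of 4437 bp, chr19:13261282-13265718 on the plus strand, was covered over 54.6% of its length. SRF, MYC and IER3 were covered over 3.93%, 7.92% and 3.1%. Of the 7 intervals, 1 lay over the start, 3 lay wholly inside the gene, 1 began 3 bp past the end and 2 lay farther downstream.

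The interval over the IER2 start, at chr19:13260854-13261601, was the only one of the 13 to span a gene start. It was 748 bp wide, reached 428 bp upstream, and had its summit 162 bp upstream of the start with a score of 44. In the list, 82.3% of summits scored lower. Among the 426 intervals of similar width 43.9% did, so for its width it scored below the middle. On GRCh37 it extends farther upstream than the 250 bases printed above for IER2. In RefSeq, STX10, which encodes a syntaxin, is the neighbouring coding gene on that side and is transcribed from the opposite strand, so to which of the 2 genes this interval belongs cannot be told apart.

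The intervals inside IER2 had higher scores towards its end. The first, at chr19:13262680-13263231, was 552 bp wide with a score of 33 and its summit 1630 bp past the start. The second, at chr19:13263515-13264295, was 781 bp wide, the widest of the 13, with a score of 38 and its summit at 2654 bp. The third, at chr19:13264739-13265509, was 771 bp wide with a score of 62 and its summit at 3998 bp, or 90.1% of the gene length. The highest score at IER2 was thus near the end of the gene and not at its start, 62 against 44. In the list, 68.1%, 76% and 91.6% of summits scored lower than these 3. Against intervals of similar width the shares were 42.9%, 32% and 68.8%, so for their width the first and second scored below the middle.

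Past the end of IER2 the scores dropped. The interval at chr19:13265721-13265928 was 208 bp wide with a score of 13, and only 0.35% of the list scored lower. A pair lay farther downstream, at 8.3 and 9.48 kb from the gene. The first of the pair, at chr19:13274023-13274600, had a score of 29 and the second, at chr19:13275202-13275457, a score of 15. This pair was just inside the 10 kb limit, and the interval nearest to MCL1, at 12.7 kb, was just outside it.

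Such crowding of summits was seen at few places. The 5 summits at IER2, from that over the start to that just past the end, spanned 4720 bp. In the whole list, 36 intervals, or 0.467%, lay among 5 or more whose summits spanned no more than this, in 7 separate stretches of which IER2 is 1. On chromosome 19 these were 10 intervals, or 1.48% of its 674. The number and the span were taken from IER2 itself, after its values were seen, so the count describes the list and tests nothing. The 4 intervals from the first inside the gene to the one past its end were separated by 283, 443 and 211 bp. Joined at a gap of at most 1 kb, they formed 1 site of 3249 bp, and 23 of the 6573 joined sites of the list (0.35%) held 4 or more intervals. The interval over the start stood 1078 bp away, just over the joining distance. Whether 1 broad enriched stretch was cut into several intervals was not tested.

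IER3, a stress and survival gene of the early response, had a strong interval at its end and a weak one at its start. The gene spans 1356 bp, chr6:30710976-30712331, on the minus strand, so its start is at the higher coordinate. The interval at the start, chr6:30712357-30712597, began 26 bp upstream and had its summit 85 bp upstream, the nearest of all 13 summits to a start. It was 241 bp wide with a score of 20, and 22.2% of the list scored lower.

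The interval at the end of IER3, chr6:30710610-30711017, had a score of 66, the highest at any of the 6 genes. In the list 92.6% of summits scored lower, and among the 1112 intervals of similar width 96.4% did. It overlapped the gene by 42 bp of its 408 bp, and its summit lay 192 bp past the end. The coding gene next to IER3 on this side in RefSeq is FLOT1, which encodes a membrane scaffold protein and is transcribed in the same direction, so its start faces the end of IER3. To which of these genes the interval belongs cannot be told apart here. The next intervals lay 20.7 kb downstream with a score of 19 and 24.5 kb upstream with a score of 58.

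**Figure D2:**
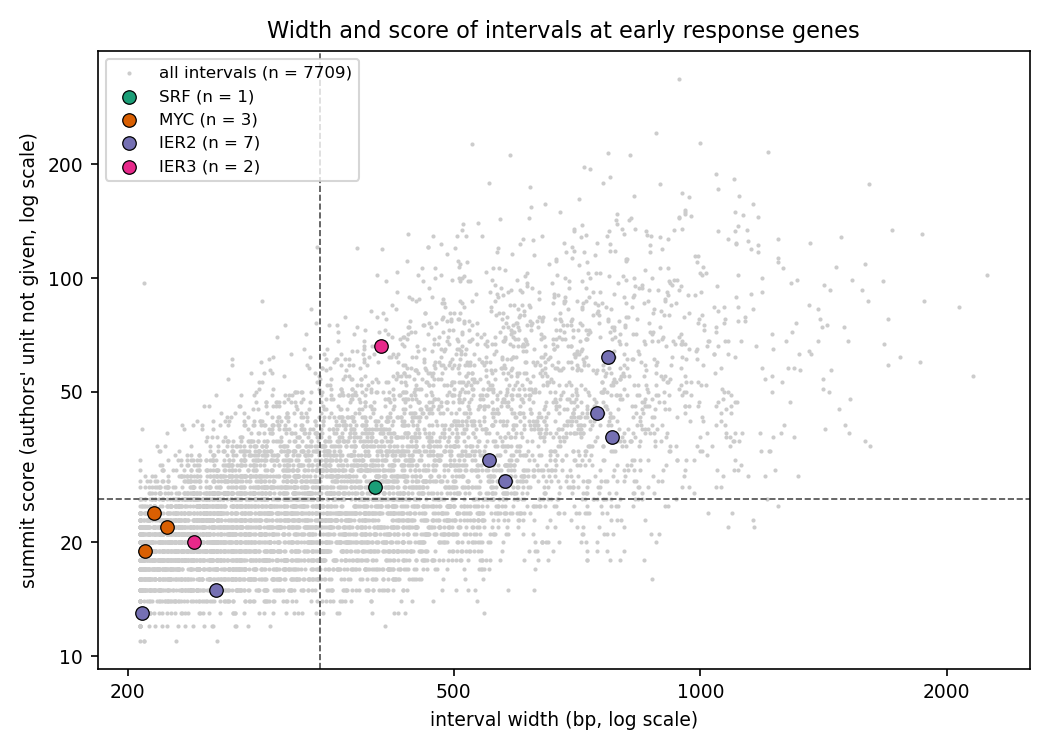
Width in bp (horizontal, log scale) and summit score (vertical, log scale) of all 7709 intervals (grey) and of the 13 intervals at SRF, MYC, IER2 and IER3 (coloured). Dashed lines mark the medians of the list, 343 bp and 26. The MYC points lie at the narrow, low corner, 5 of the 7 IER2 points lie above both medians, and the IER3 interval with a score of 66 lies high for its 408 bp.

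DUSP1, the MAP kinase phosphatase gene, was the member farthest from any interval. The gene spans chr5:172195093-172198203 on the minus strand. Its nearest interval, chr5:172247207-172247496, lay 49 kb upstream with a score of 42, and 80.4% of the list scored lower. The nearest on the other side lay 108 kb away with a score of 23. Intervals did occur in the wider region: 11 lay within 500 kb of DUSP1, or 11 per Mb, and the highest score among them was 101. Over chromosome 5 there were 1.96 per Mb. That figure includes unsequenced gaps and stretches without genes, so it is a low background for a region that holds genes.

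MCL1, the survival gene of the BCL2 family, had its nearest interval past its end. The gene spans chr1:150547027-150552214 on the minus strand. The interval at chr1:150534015-150534283 lay 12.7 kb downstream with a score of 33, and a second lay 21.9 kb downstream with a score of 15. Upstream of the MCL1 start the nearest interval was 196 kb away, also with a score of 15. Within 500 kb there were 10 intervals, or 9.95 per Mb, against 3.07 per Mb over chromosome 1, with a highest score of 40. As for DUSP1, the figure for the whole chromosome is a low background.

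The share of windows with an interval within 10 kb was also taken with the length and on the chromosome of each gene. It was 5.15% for SRF, 3.37% for MYC, 18.9% for IER2, 3.77% for IER3, 3.71% for DUSP1 and 6.21% for MCL1. The genes with an interval were SRF, MYC, IER2 and IER3. The windows include unsequenced gaps and stretches without genes, so they are a low background for a gene, and the share among all genes was not computed because no gene models on GRCh37 were at hand. An interval as near as that of MCL1 was found for 7.41% of windows of its length on chromosome 1, and one as near as that of DUSP1 for 13.5% on chromosome 5. Both genes were nearer to an interval than most such windows, gaps and stretches without genes included, although neither met the rule. The distances were set by the genes themselves, and how near other genes lie to an interval was not computed.

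The position of the 13 summits relative to the genes varied. Summits lay inside a gene span in 6 cases, upstream of a start in 3 and past an end in 4. Within 500 bp of a start there were only 2, those of IER2 at 162 bp and IER3 at 85 bp upstream. Of the 13 intervals, 8 overlapped a member gene, and each of the 4 genes with an interval had at least 1 that did. At IER2 and IER3, the interval at the start scored lower than that at or near the end, 44 against 62 and 20 against 66. The interval at the IER2 start and that at the IER3 end could not be assigned between the gene and its neighbour. Of the 13 summits, 12 fell on exact multiples of 32 bp, and the other, just past the end of IER2, lay 16 bp from such a multiple. The share among all summits is not given here. Summit positions thus lay on a coarse grid, and the error of their distances to a start, which can be larger, was not measured. Exons, introns and UTRs under the intervals were not analysed here for the same lack of GRCh37 gene models.

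**Figure D3:**
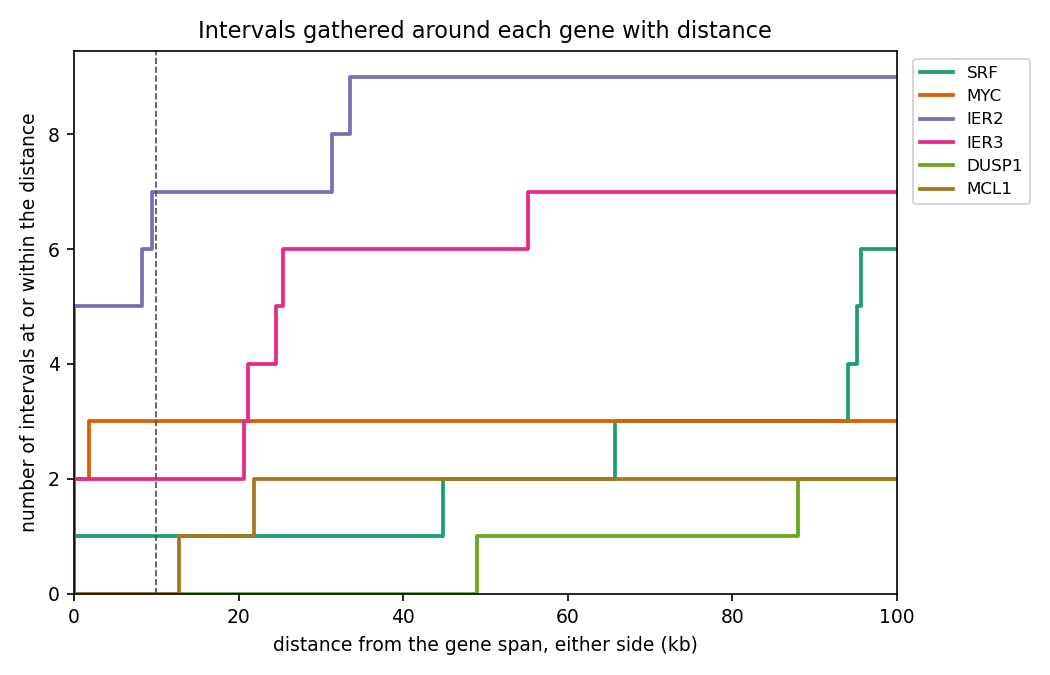
Number of intervals (vertical) at or within a given distance in kb of each gene span, counted on both sides (horizontal); the dashed line is at 10 kb. IER2 is highest throughout, with 5 intervals within 1 kb, MYC reaches 3 at 1.8 kb and has no more out to 100 kb, IER3 climbs from 2 to 6 by 50 kb, and MCL1 and DUSP1 leave 0 at 12.7 and 49 kb.

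At 50 kb and beyond, IER2 and IER3 had the most intervals, whereas within 10 and 20 kb MYC had more than IER3, 3 against 2. Within 50 kb IER2 had 9 intervals, IER3 had 6, MYC had 3, SRF and MCL1 had 2 each and DUSP1 had 1. Within 100 kb the numbers were 9, 7, 3, 6, 2 and 2 in the order IER2, IER3, MYC, SRF, MCL1 and DUSP1. Within 500 kb IER2 had 22, IER3 17, SRF 15, DUSP1 11, MCL1 10 and MYC 4. IER2 lies on chromosome 19, which had 11.5 intervals per Mb, and there were 21.9 per Mb within 500 kb of it. All these counts include the intervals that met the rule, 7 at IER2, 2 at IER3 and 1 at SRF, which raises the densities. The surroundings of IER3 and SRF had 17 and 14.8 per Mb, against 2.25 over chromosome 6. Chromosome densities include gaps and stretches without genes. The higher values near these genes therefore do not set them apart from other genes, whose surroundings were not counted.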

How the data were processed

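EGR1 ChIP was made from sonicated nuclei of t-HESC cells, and the library was size-selected at 200 to 300 bp and amplified by 18 cycles of PCR, per the labels' protocols. BWA, MACS and MACS2 2.1.0 with build GRCh37.p2 were used, per the submitters' processing notes. The sources used here do not give the options, the threshold or how duplicates were treated. The authors deposited interval and summit positions (unit: other) and 1 score per summit, without a unit.

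Gene spans came from the rule that defines the set. Each summit was read from the same place in its list as its interval, and starts were taken as BED starts and are printed 1-based. Strands came from RefSeq for SRF, IER2 and DUSP1, and from general knowledge for the others. Every member is named, with or without an interval. The members and lists were chosen with earlier results of these data known. Motifs were searched on both strands of 250 bases before RefSeq starts (GRCh38.p14), and 3 of the 6 members had a window. No positions were moved between builds. Windows and interval densities of a chromosome were taken from its first to its last interval. The window count and the motif search were checked on simulated data. Scripts ran in Python 3.11.15, with pandas 2.3.3 and numpy 2.4.6 for the counts and matplotlib 3.10.9 for figures. Alternatives varied distance, reference point, score limit, joining and ranking.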

Additional observations from a re-analysis of the deposited data

How the results depend on the processing

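The number of genes with an interval was 4 by overlap with the gene span and at distances of 1, 5 and 10 kb from it, and at 10 kb also when measured from the summit or from the gene start. It was 5 at 20 kb, where MCL1 joined, and 6 at 50 kb. Counting only scores from the list's median upwards left 3, without MYC, and from the 90th percentile upwards 2, IER2 and IER3. The 13 intervals became 8 by overlap alone, 7 at the median score, 2 at the 90th percentile and 23 at 50 kb. These changes follow from counting fewer or more intervals. Between these settings it was 10 at 1 kb, 11 at 5 kb or from the gene start, 14 at 20 kb and 9 after joining neighbours. The median share of the list scored lower than a summit of these genes was 56.2%. It was 73.9% over the highest-scored interval of each gene, 62.1% within 1 kb of the genes, 55% when ranked within the chromosome and 43.5% when ranked among intervals of similar width, so the side of the middle on which it falls depends on the ranking. The cause was not tested. No paired analysis was possible because there is 1 ChIP library and no test. The unknown depth and the lack of a replicate limit every value to this library.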
